A study of Mus musculus with 4 samples.

Results

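F-box protein genes other than Fbxw7 were followed on 4 Affymetrix arrays of sorted mouse bone marrow cells. A gene was taken as a member when a probe set naming exactly 1 gene carried a symbol of the form Fbxl, Fbxo or Fbxw followed by a number, and Fbxw7 was left out. This gave 65 genes, measured by 112 probe sets, of 18193 named genes in all. Of the 65, 16 were Fbxl, 32 Fbxo and 17 Fbxw genes. Each gene took its brightest probe set, by mean log2 intensity over the 4 arrays, and 25 of the 65 genes had more than 1 probe set. A gene was kept for comparison when at least 1 array gave 157 or more, which is the median of all readings. This level filter kept 50 members, and a filter on the mean over the 4 arrays also kept 50.

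An F-box protein is the exchangeable part of an SCF ubiquitin ligase. Its F-box motif binds Skp1, which joins it to the Cul1 scaffold and the Rbx1 RING subunit, and the rest of the protein binds the substrate to be marked with ubiquitin. The family is classed by that substrate-binding part: Fbxl proteins carry leucine-rich repeats, Fbxw proteins carry WD40 repeats, and Fbxo proteins carry other domains. Fbw7, the product of Fbxw7, is the F-box protein that was lost in the mutant mice, and the other F-box proteins share the same core with it.

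Wild-type and Fbw7-deficient marrow were each sorted into LSK and MP cells, and each of the 4 groups was put on 1 array. LSK cells are lineage-negative, Kit-positive and Sca1-positive and include the blood stem cells. MP cells are Kit-positive, Sca1-negative myeloid progenitors. All mice, wild-type ones included, were given polyI:C intraperitoneally in 3 doses of 20 ug per g, and marrow was taken after 2 weeks, when cells of 3 mice per genotype were pooled before the sort. The sources used here do not give the Fbw7 allele, the way it was inactivated, the strain or the age. Values below come for LSK first and then for MP cells, and within each pair the wild-type array comes before the Fbw7-deficient one. With no replicate in any group no test was possible, so every difference below lies between single arrays and has no error between replicates. In RNA from a sorted population, fewer cells of a type and less RNA per cell cannot be told apart.

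In wild-type marrow the sorted populations carried the markers of their names. Of 11 measured stem cell markers, all 11 read higher in LSK than in MP cells of wild-type marrow, with a median log2 difference of 2.44. All 8 measured myeloid progenitor and granule genes were lower there (median -2.03). In Fbw7-deficient marrow all 11 stem cell markers were again higher in LSK (median 2.10), but only 6 of 8 myeloid progenitor and granule genes were lower (median -0.39), and all 11 neutrophil and macrophage genes were higher in LSK (median 0.66). Kit, the receptor used in both gates, read 6723 and 5313 in LSK and 6510 and 4190 in MP. Ly6a, which encodes Sca1, was not analysed here. Median intensity was between 155 and 159 on the 4 arrays. For Gapdh, the control signal from the 3' end over that from the 5' end was 4.30 on the wild-type LSK array and between 2.60 and 2.95 on the others. Fbxw7 RNA itself read 1355 and 1103 in LSK and 691 and 958 in MP. The sources used here do not say whether its probe sets lie in the part that was removed, so these readings do not check the labels.

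The first question was whether the other substrate receptors differ in RNA level when Fbw7 is missing. On the probe sets used, no F-box gene was 2-fold higher or lower in Fbw7-deficient LSK. Of all 12239 filtered genes 3.74% were (1.79% higher and 1.95% lower). No F-box gene was in Fbw7-deficient MP either, where 2.31% of all genes were (0.825% higher and 1.49% lower). A count of 0 among 50 genes cannot be told apart from either share. At the lower mark of 1.5-fold, 2 of the 50 F-box genes differed in LSK, where 11.6% of all genes did. Both were lower without Fbw7 (background 7.08%) and none was higher (background 4.5%). In MP 1 of 50 differed, where 8.24% of all genes did, and it was lower (background 5.26%), with none higher (background 2.97%). Between LSK and MP cells of wild-type marrow no F-box gene differed by 2-fold on the probe sets used. Of all genes 7.45% did (5.05% higher and 2.4% lower in LSK). No F-box gene did in Fbw7-deficient marrow, where 5.5% of all genes did (3.86% higher and 1.63% lower). Other probe sets of Fbxo32 passed 2-fold between LSK genotypes and between populations, with limits given for that gene below. The median log2 difference of the 50 genes was -0.03 in LSK and -0.03 in MP, beside 0.00 in both for all genes. The quartiles of the F-box genes lay at -0.20 and 0.10 in LSK, where those of all genes lay at -0.21 and 0.18.

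**Figure D1:**
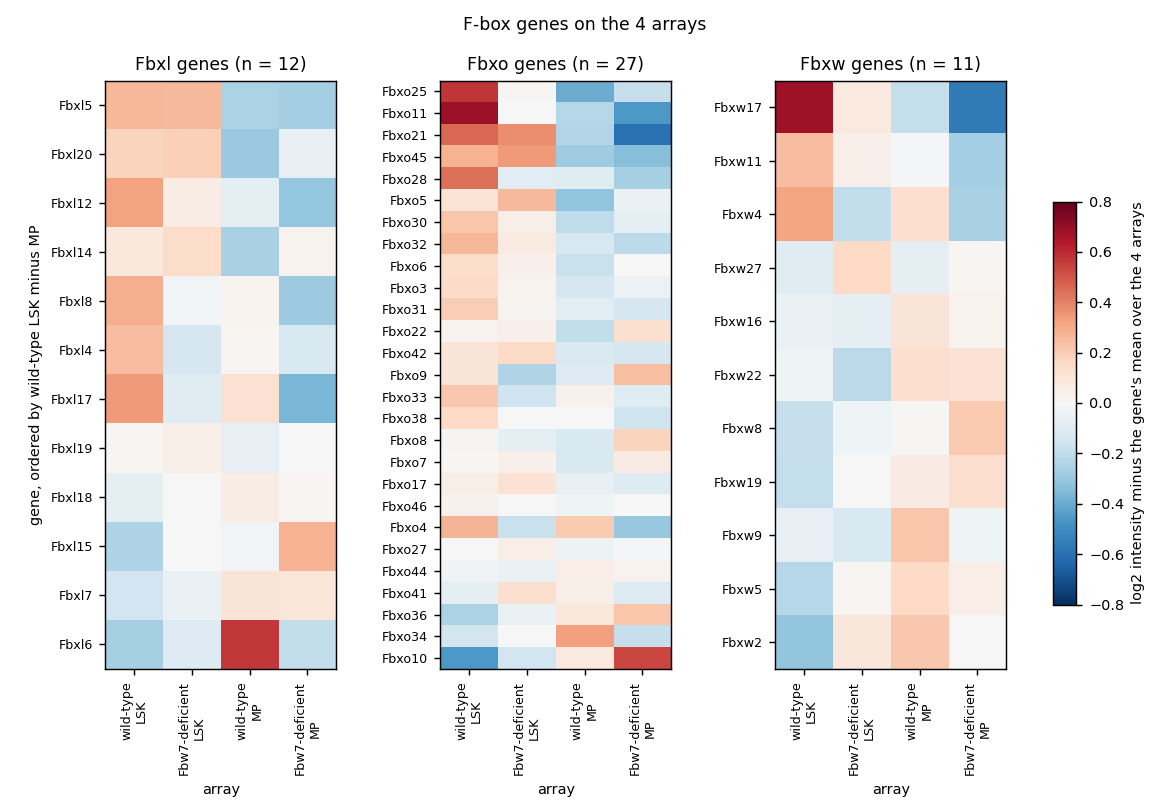
Heat map of the 50 F-box genes that passed the level filter (rows, by class) on the 4 arrays (columns). Colour gives the log2 intensity of a gene minus its own mean over the 4 arrays, with red for higher and blue for lower. Fbxo11 and Fbxw17 span the widest ranges, at log2 1.14 and 1.25, and most other rows are pale.

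Most members stayed within 1.5-fold over the 4 arrays, as did most of all genes. The distance from the lowest to the highest array had a median of log2 0.40 for the F-box genes and 0.43 for all genes. It stayed under 1.5-fold for 40 of the 50 F-box genes (80%), where it did so for 64.6% of all genes, and it reached 2-fold for 3 of 50 (6%), where it did so for 14.9% of all genes. The 3 were Fbxo11, Fbxw17 and Fbxo21, and each was highest on the wild-type LSK array and lowest on the Fbw7-deficient MP array. The wild-type LSK array held the highest value of 21 of the 50 F-box genes, or 42%, and of 34.0% of all genes.

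Fbxo11, a receptor known for marking the B cell repressor BCL6 for degradation, had the largest difference between the LSK arrays. It read 1156 and 722 in LSK and 615 and 524 in MP. Wild-type LSK stood above the other 3 arrays, and Fbw7-deficient LSK was above Fbw7-deficient MP by log2 0.46. The log2 difference between genotypes was -0.68 in LSK, and 5.16% of all genes were as low or lower. In MP it was -0.23.

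Fbxw17, a WD40 member, showed the same order of arrays. Its intensity was 927 and 611 in LSK and 508 and 390 in MP. Both populations were lower without Fbw7, by log2 -0.60 in LSK and -0.38 in MP. With Fbxo11 it made up the 2 members past 1.5-fold in the LSK genotype comparison. Fbxo11 and Fbxw17 each have 1 probe set, so neither difference could be checked on another.

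Fbxo25 and Fbxo28 came just short of 1.5-fold in LSK. Fbxo25, also with 1 probe set, read 969 and 657 in LSK and 494 and 572 in MP. It was thus lower without Fbw7 in LSK (log2 -0.56) and higher in MP (log2 0.21). Fbxo28, reported to ubiquitylate MYC, read 1054 and 733 in LSK and 725 and 646 in MP. Its log2 difference was -0.52 in LSK and -0.17 in MP. The next brightest of its 3 probe sets gave -0.44 and -0.82, so both of these pointed down in both populations but put the larger difference in different ones, and the dimmest gave -0.07 and 0.32. In wild-type marrow these 4 genes were all higher in LSK than in MP on the probe sets used. The log2 difference was 0.91 for Fbxo11, 0.87 for Fbxw17, 0.97 for Fbxo25 and 0.54 for Fbxo28. The next brightest and the dimmest probe set of Fbxo28 gave -0.12 and -0.11 in that comparison, the opposite sign. That comparison and the LSK genotype comparison share the wild-type LSK array, on which the 3' over 5' signal of Gapdh was also the highest (4.30), and the part of that array in these values was not tested.

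The sequence before the starts of Fbxo11, Fbxw17 and Fbxo28 is shown, from RefSeq on GRCm38.p6. These genes were picked for their lower readings without Fbw7 on the probe sets used. Other members were lower too, and any shared control was not tested. Promoter entries were found for 48 of the 65 members, and none was found for Fbxo25, Fbxo32 or Fbxl6. The stretches end at the base before the annotated gene. Capitals mark matches, on either strand, to the CCAAT box (CCAAT), the GC box (GGGCGG), the E-box bound by MYC (CACGTG) and the FOXO site (GTAAACA). No 2 matches overlap in the printed stretches.
Fbxo11, chr17:88066046-88066295, minus strand: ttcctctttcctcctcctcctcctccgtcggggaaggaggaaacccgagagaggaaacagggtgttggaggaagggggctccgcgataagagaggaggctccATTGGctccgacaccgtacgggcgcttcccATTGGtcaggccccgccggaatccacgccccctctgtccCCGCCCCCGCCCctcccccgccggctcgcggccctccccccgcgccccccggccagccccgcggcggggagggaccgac
Fbxw17, chr13:50417614-50417834, plus strand: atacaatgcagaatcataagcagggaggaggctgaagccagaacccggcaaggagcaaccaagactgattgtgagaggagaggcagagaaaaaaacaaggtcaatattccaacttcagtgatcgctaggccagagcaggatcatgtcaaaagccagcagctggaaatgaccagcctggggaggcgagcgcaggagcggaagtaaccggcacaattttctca
Fbxo28, chr1:182341607-182341856, minus strand: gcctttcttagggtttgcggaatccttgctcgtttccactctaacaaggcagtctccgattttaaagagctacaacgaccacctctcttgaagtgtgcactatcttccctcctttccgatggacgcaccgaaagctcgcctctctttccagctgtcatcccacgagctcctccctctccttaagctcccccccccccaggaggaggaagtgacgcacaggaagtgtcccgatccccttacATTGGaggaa

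The Fbxo11 stretch, which overlaps an annotated non-coding RNA gene, Gm45950, held 2 CCAAT boxes and 2 adjoining GC boxes, and 72.4% of its bases were G or C. The Fbxo28 stretch held 1 CCAAT box close to the start, with 54.4% G or C. The Fbxw17 stretch held none of the 4 motifs (51.1% G or C), and its bases after the annotated gene start are not printed. Fbxw17 is still among the members with a GC box counted below, where the whole 250 bases of every entry were searched. None of the 3 printed stretches held an E-box or a FOXO site. Over the 250 bases before the start, the GC box was present in 24 of the 38 filtered members with an entry (63.2%) and in 61.9% of all filtered genes with one. The CCAAT box was present in 31.6% and 39.9%, the E-box in 2.63% and 9.75%, and the FOXO site in 0 of 38 and 2.69%. Over all 32851 promoter windows of that length the shares were 32.7% for the GC box, 33.8% for the CCAAT box, 6.02% for the E-box and 3.17% for the FOXO site. A match describes the letters only.

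**Figure D2:**
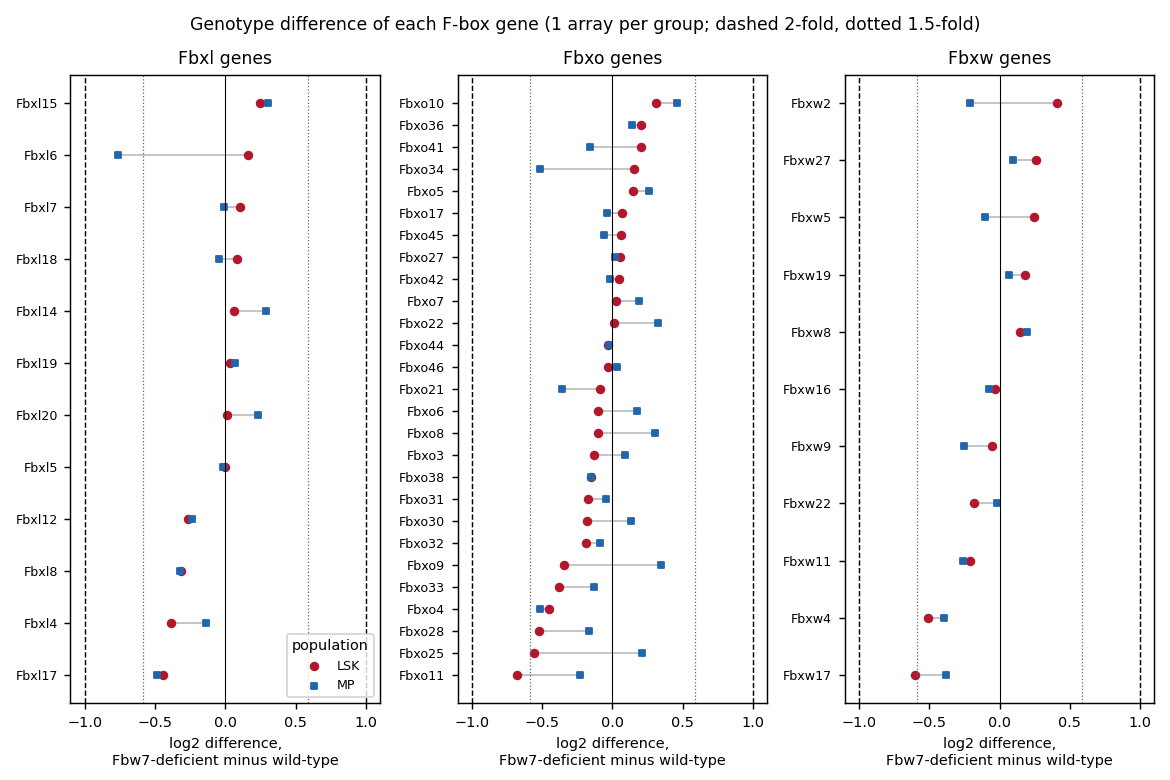
Log2 difference of Fbw7-deficient minus wild-type (x axis) for each F-box gene that passed the level filter (y axis, by class), with circles for LSK and squares for MP cells, 1 array per group. Dashed lines mark 2-fold and dotted lines 1.5-fold. No point reaches a dashed line, and only Fbxo11 and Fbxw17 in LSK and Fbxl6 in MP pass a dotted one.

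Among the 27 Fbxo genes, 16 were lower and 11 higher in Fbw7-deficient LSK, with a median of -0.09. In MP 14 were lower and 13 higher (median -0.02). The class holds several regulators of the cell cycle. Fbxo5, which encodes the APC/C inhibitor EMI1, read 3124 and 3457 in LSK and 2321 and 2782 in MP. It was thus a little higher without Fbw7 in both populations (log2 0.15 and 0.26) and higher in LSK than in MP. Fbxo4 and Fbxo31, both reported to bind cyclin D1, went other ways. Fbxo4 read 262 and 192 in LSK and 250 and 175 in MP, lower without Fbw7 by log2 -0.45 and -0.51, although its second probe set, at most 111 on any array, was under the filter and gave 0.08 and 0.06. Fbxo31 differed by log2 -0.17 in LSK and -0.05 in MP on the probe set used and by 0.41 and 0.32 on the other, so the probe sets gave opposite signs.

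Fbxo10, a receptor reported to target BCL2, was the Fbxo gene with the largest difference upward in both populations on the probe sets used. With the mean of all probe sets Fbxo36 was higher in LSK (0.33) and Fbxo30 in MP (0.52). Fbxo10 read 251 and 311 in LSK and 364 and 500.2 in MP. The wild-type LSK array was the lowest and the Fbw7-deficient MP array the highest, the reverse of Fbxo11, with log2 differences of 0.31 in LSK and 0.46 in MP. Fbxo7, a gene of inherited parkinsonism, read between 1512 and 1726 on all arrays. Fbxo3 (-0.13 and 0.09) and Fbxo38 (-0.15 and -0.15) also differed little on the probe sets used, though a dim probe set of Fbxo3 gave 0.15 and 0.53. Fbxo9 read 1538 and 1213 in LSK and 1335 and 1695 in MP, lower without Fbw7 in one population (log2 -0.34) and higher in the other (log2 0.34). Its other probe set gave -0.14 and 0.20, the same signs. Fbxo22, known for marking the histone demethylase KDM4A, was at 0.01 and 0.32 on the probe set used. Its other probe sets gave the opposite sign in MP, with 0.29 and -0.11 on one and 0.12 and -0.05 on the other, and their mean in MP was 0.06. Fbxo8, with 1 probe set, was at -0.10 and 0.30. Fbxo36 was at 0.20 and 0.14, with 0.47 and 0.52 on its other probe set, and Fbxo41 at 0.20 and -0.16.

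Of the 12 Fbxl genes that passed, 5 were lower and 7 higher in Fbw7-deficient LSK (median 0.02), and 8 were lower and 4 higher in MP (median -0.03). Fbxl5, the iron-sensing receptor that controls iron regulatory protein 2, separated the populations and not the genotypes. It read 1324 and 1318 in LSK and 926 and 914 in MP. The genotype log2 differences were -0.01 and -0.02, and LSK cells were higher by 0.52 and 0.53.

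Fbxl17, which removes wrongly paired BTB domain proteins, was lower without Fbw7 in both populations. Its intensity was 2102 and 1547 in LSK and 1804 and 1288 in MP (log2 -0.44 and -0.49). A dimmer second probe set gave 0.01 and -0.14, so the difference in LSK was seen on 1 of 2 probe sets. Fbxl12 (log2 -0.27 and -0.24) and Fbxl8 (log2 -0.31 and -0.32), each with 1 probe set, were also lower in both. Fbxl4, a mitochondrial protein that restrains mitophagy, was at -0.38 in LSK and -0.14 in MP. Upward, Fbxl15 (0.25 and 0.30) was the largest in both, and Fbxl14, a receptor for the transcription factor Snail, was at 0.06 and 0.29. Fbxl20 was at 0.01 and 0.23, with -0.01 and -0.50 on its next brightest probe set. Fbxl7 (0.10 and -0.01), Fbxl18 (0.08 and -0.04) and Fbxl19 (0.04 and 0.07) were close to 0 in both.

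Fbxl6 stood apart in MP. It read 740 and 827 in LSK and 1319 and 778 in MP. Only the wild-type MP array was high, and the other 3 lay close together. The log2 difference between genotypes was -0.76 in MP, where 3.06% of all genes were as low or lower, and 0.16 in LSK. Wild-type LSK was below wild-type MP by log2 -0.84, while the 2 Fbw7-deficient populations differed by 0.09. Both larger values rest on the wild-type MP array, and the gene has 1 probe set, of a kind whose probes match several transcripts of a gene.

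Part of the Fbxw class lies in a run of neighbouring genes. In the RefSeq order, 15 Fbxw genes follow each other with no other protein-coding gene between them, and 9 of these were members. Of the 9, 5 (Fbxw13, Fbxw14, Fbxw18, Fbxw21 and Fbxw24) never reached the level filter, with readings between 21.7 and 35.6. The other 4 were Fbxw16, Fbxw19, Fbxw22 and Fbxw27, which read up to 329, 361, 639 and 177. These genes are near copies of one another, so a probe set named for one can take signal from another, and their identity is uncertain on these arrays. All 4 differed by no more than log2 0.26 between genotypes in both populations. Outside the run 7 of 8 Fbxw members passed the filter, and the difference from the run was not tested.

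The WD40 receptors outside that run include Fbxw11, or beta-TrCP2, which marks beta-catenin and the NF-kB inhibitor for degradation. Fbxw11 read 11464 and 9920 in LSK and 9543 and 7974 in MP. It was lower without Fbw7 by log2 -0.21 and -0.26, and its next brightest probe set gave -0.22 and -0.34. A dimmer one above the filter gave 0.33 and -0.35, and the mean of all its probe sets turned the LSK value to 0.06. Fbxw4, which lies at the mouse dactylaplasia locus, read 1024 and 721 in LSK and 907 and 690 in MP, so it too was lower in both (log2 -0.51 and -0.39). Fbxw8, which works with Cul7 in place of Cul1, was higher in both, by log2 0.15 and 0.20, and its next brightest probe set gave 0.14 and 0.03. On the probe sets used, Fbxw5 (0.24 and -0.10) and Fbxw2 (0.41 and -0.21) were higher in LSK and lower in MP. The other Fbxw2 probe sets above the filter gave 0.44, 0.66 and -0.08 in MP, so its sign there depends on the probe set. Fbxw9 was lower in both (-0.05 and -0.25), though its other probe set, under the filter, gave 0.07 and 0.17. Of the 11 Fbxw genes that passed, 6 were lower in LSK and 8 in MP. The LSK median of the class was -0.03, and it was 0.10 when all probe sets of a gene were averaged.

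Genotype differences in LSK and MP use different arrays, though the same pools of mice. Of the 50 F-box genes, 20 were lower in both, 13 higher in both, 7 lower in LSK and higher in MP, and 10 the reverse. The signs were thus the same in 66% of F-box genes, where they were in 62.5% of all genes. Ranked by the smaller of their differences on the probe sets used, the members lowest in both were Fbxo4, Fbxl17, Fbxw4 and Fbxw17, and the highest in both was Fbxo10.

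Between populations the class medians differed in sign, a difference that was not tested. In wild-type marrow 22 of 27 Fbxo genes were higher in LSK than in MP (median log2 0.20), as were 8 of 12 Fbxl genes (median 0.23), while 8 of 11 Fbxw genes were lower (median -0.17). The lower ones include Fbxw16 (-0.15), Fbxw19 (-0.25), Fbxw22 (-0.17) and Fbxw27 (-0.02) of the run. Their probe sets can share signal, so they may not count as separate readings. The 3 higher Fbxw genes, Fbxw4, Fbxw11 and Fbxw17, lie outside the run. Over all genes the median was -0.02, and 48.0% were higher in LSK. These 3 signs held under every alternative tried, including both other scalings, but the Fbxl median was 0.06 with no level filter. Single genes were less stable. For 18 F-box genes a second probe set was above the filter, and in 10 it gave the same sign between wild-type populations. That is 55.6%, beside 67.6% for all genes. The median distance between the 2 probe sets was log2 0.42, larger than any of these class medians. In Fbw7-deficient marrow the medians were 0.10 for Fbxl, 0.13 for Fbxo and -0.04 for Fbxw genes, of which 5 were higher and 6 lower in LSK. The Fbxo and Fbxw medians became 0.02 and 0.01 when the probe sets of each gene were averaged. At 1.5-fold, 5 of the 50 differed between populations in wild-type marrow, where 19.6% of all genes did. Of these, 4 F-box genes were higher in LSK (background 12.7%), namely Fbxo11, Fbxo21, Fbxo25 and Fbxw17, and Fbxl6 alone was lower (background 6.91%). In Fbw7-deficient marrow, where 14.4% of all genes passed that mark, 3 were higher in LSK (background 9.62%), namely Fbxo21, Fbxo45 and Fbxw17, and Fbxo10 alone was lower (background 4.74%).

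Fbxo21 and Fbxw17 were the members past 1.5-fold between populations in both genotypes. Fbxo21 read 1437 and 1353 in LSK and 889 and 692 in MP, so both LSK arrays were above both MP arrays. The log2 difference was 0.69 in wild-type and 0.97 in Fbw7-deficient marrow, but its other probe set gave 0.03 and 0.02. Fbxo45, which is known from the nervous system and pairs with the ligase MYCBP2, read 2366 and 2467 in LSK and 1602 and 1539 in MP. Its log2 differences between populations were 0.56 and 0.68, and its dimmer probe set gave -0.34 and -0.18. For both genes, then, the difference between populations was seen on 1 of 2 probe sets.

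**Figure D3:**
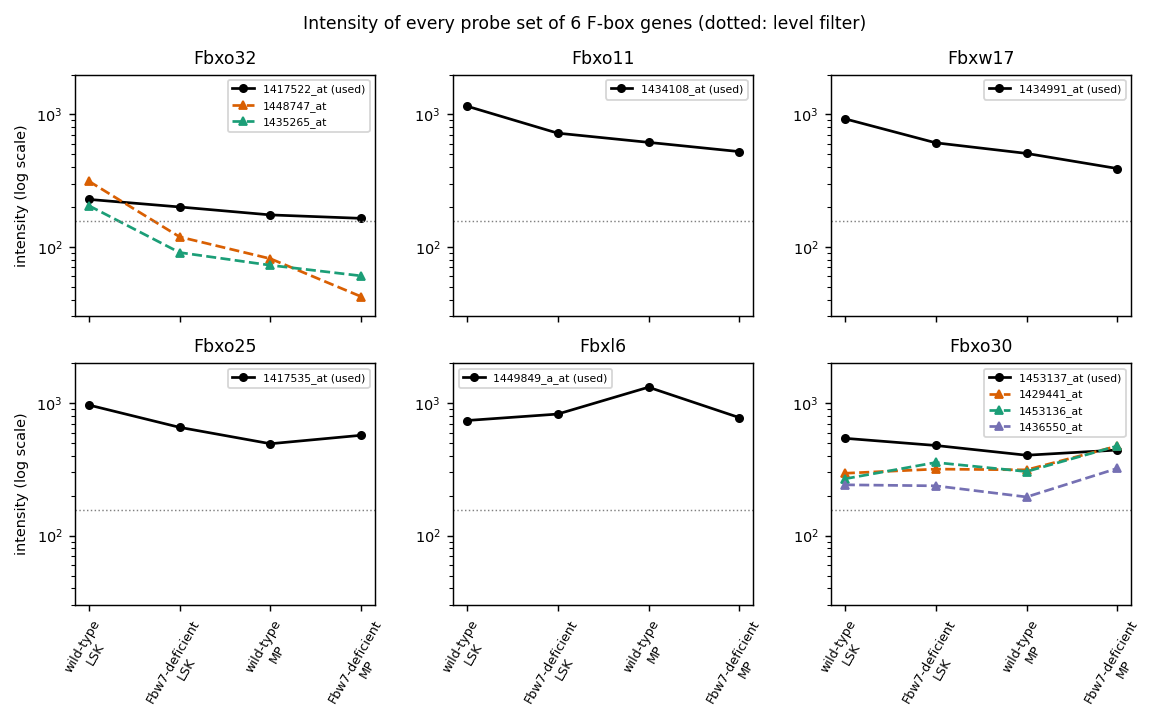
Intensity (y axis, log scale) of every probe set of 6 F-box genes on the 4 arrays (x axis); solid lines are the probe set used for the gene, dashed lines its other probe sets, and the dotted line the level filter of 157. For Fbxo32 the probe set used goes only from 228 to 164, and another goes from 314 to 42.1.

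Fbxo32 shows how much the choice of probe set can matter. It encodes atrogin-1, an F-box protein of muscle wasting and a known target of FOXO factors, and 3 probe sets measure it. The brightest, used above, read 228 and 200.3 in LSK and 174 and 164 in MP. The next brightest read 314 and 119 in LSK and 81.5 and 42.1 in MP, and the dimmest read 205 and 90.7 in LSK and 72.7 and 60.5 in MP. All 3 put wild-type LSK highest and Fbw7-deficient MP lowest. The log2 difference between genotypes in LSK was -0.19 on the brightest, -1.40 on the next and -1.18 on the dimmest. In MP it was -0.09, -0.95 and -0.27. Wild-type LSK was above wild-type MP by log2 0.39, 1.95 and 1.496. On the latter 2 probe sets only the wild-type LSK array was above the level filter, so the other 3 readings are not shown to be above background and the size of the fold is not established. With the mean of all 3 probe sets the gene differed by log2 -0.92 in LSK.

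**Figure D4:**
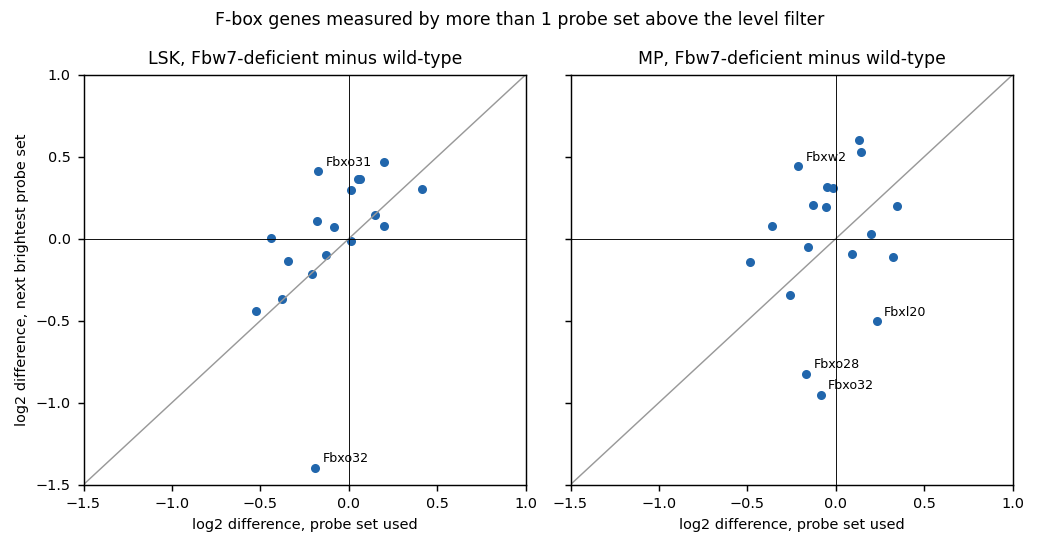
Log2 difference of Fbw7-deficient minus wild-type on the probe set used (x axis) and on the next brightest probe set of the same gene (y axis) for the 18 F-box genes with more than 1 probe set above the level filter, in LSK (left) and MP (right); the diagonal marks equal values. Signs were the same for 13 of 18 genes in LSK and 9 of 18 in MP, and Fbxo32 lies farthest below the diagonal in LSK.

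For 18 F-box genes more than 1 probe set was above the filter, and the next brightest had the same sign in 13 genes in LSK (72.2%, beside 69.2% for all genes) and in 9 genes in MP (50%, beside 68.0%). The median distance between the 2 probe sets was log2 0.18 in LSK and 0.35 in MP for F-box genes, and 0.19 and 0.17 for all genes. The genotype difference itself had a median size of log2 0.17 over the F-box genes in each population. Fbxo30, a receptor of muscle growth control, is another case. The probe set used read 543 and 479 in LSK and 405 and 443 in MP, a log2 difference of 0.13 in MP. Its other 3 probe sets gave 0.60, 0.64 and 0.72 there, so all 4 were higher in Fbw7-deficient MP, 3 of them by more than 1.5-fold.

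The remaining 15 members never reached the level filter. They were Fbxl2, Fbxl13, Fbxl16, Fbxl21, Fbxo2, Fbxo15, Fbxo16, Fbxo24, Fbxo43, Fbxw10 and the 5 Fbxw genes of the run named above. Several are known from other tissues, such as Fbxo43 of meiosis, Fbxo15 of embryonic stem cells and Fbxo2 of the brain. Their highest reading was 125, for Fbxo24, and the lowest member that passed was Fbxw27 with 177 on its highest array. None of them had a range over the 4 arrays wider than log2 0.51. A low intensity is not shown to be above background and is not called absence.

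The other parts of the pathway were read from a list of related genes. Of 7 measured F-box genes with other symbols 6 passed the filter, and none differed by 1.5-fold between genotypes. Of all genes 11.6% did in LSK and 8.24% in MP, and a count of 0 among 6 genes cannot be told apart from those shares. Skp2, which targets the cell cycle inhibitor p27, was at log2 0.31 in LSK and 0.12 in MP, and Ccnf, which encodes cyclin F, at 0.37 and 0.40. Btrc, or beta-TrCP1, was at 0.18 and 0.41, where its near relative Fbxw11 was at -0.21 and -0.26. Of 34 filtered genes of the SCF core and of the NEDD8 cycle that switches it on, 1 was lower by 2-fold or more in LSK without Fbw7 (background 1.95%) and none in MP (background 1.49%). That gene was Dcun1d1, a NEDD8 ligase for cullins, which read 1691 and 740 in LSK and 590 and 503 in MP on the brightest of its 5 probe sets, the same order of arrays as Fbxo11 and Fbxw17. The ubiquitin-conjugating enzyme gene Cdc34 was higher by log2 0.87 in LSK and 0.57 in MP. Cul1, the scaffold (log2 0.00 and 0.01), and Skp1 (0.11 and 0.08) were nearly level.

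Markers of cell types differed between the same arrays. In Fbw7-deficient LSK all 11 stem cell markers were lower (median log2 -1.07), and their summed intensity was 40646 and 21043. All 13 erythroid markers were higher (median 1.53, summed 29249 and 61376), as were all 8 myeloid progenitor and granule genes (median 1.68, summed 56406 and 111925), all 11 neutrophil and macrophage genes (median 1.43, summed 66749 and 142291) and all 9 filtered lymphoid genes (median 0.48). In MP all 13 erythroid markers were higher without Fbw7 (median 0.78), all 9 lymphoid genes were lower (median -0.77) and 9 of 11 stem cell markers were lower (median -0.68). The myeloid progenitor and granule genes (5 of 8 higher, median 0.02) and the neutrophil and macrophage genes (7 of 11 higher, median 0.11) had medians close to 0 there. No marker in these lists was at 0, since every probe set had a positive reading. The part of such differences in cell composition in the values of Fbxo11, Fbxw17, Fbxo25, Fbxo28, Fbxo32 and Fbxl6 was not tested.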

How the data were processed

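The deposited values were linear intensity readings, 1 for each probe set and array, and the submitters' processing notes name RMA. The sources used here give no version or settings for it. Per the labels' protocols, 20 ng of total RNA was amplified in a pair of cycles and labelled with biotin. RMA evens out the distributions of arrays and compresses differences of dim genes. Values were taken to log2 here. Of 45101 probe sets 34945 name 1 gene, and 34741 of these took their symbol by gene ID from a RefSeq table of GRCm38.p6; 2 probe sets naming several Fbxw genes were left out.

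Differences are between single arrays, with no test, called at 2-fold and described at 1.5-fold. Depth does not apply to arrays: their number, 1 per group, limits the precision. The calling step was run on simulated data whose noise was assumed, since no replicate exists to estimate it. That run checks the code and says nothing of the noise on these arrays. Members and lists were chosen with earlier results of these data known. Named genes are the 4 largest rises and falls of each class in either genotype comparison, any member past 2-fold, and 23 fixed names. Fbxo45, Fbxw16, Dcun1d1, Cdc34, the genes under the level filter and those of the Fbxw run were named after their values were seen. Fbxo32's other probe sets were likewise singled out after their values were seen. Alternatives were the mean of all probe sets, other level filters, 2 other scalings, leaving out probe sets of cross-matching kinds, the annotation's own symbols and 1.5-fold. Python 3.11.15, numpy 2.4.6 and pandas 2.3.3 were used.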

Additional observations from a re-analysis of the deposited data

Results flagged for a closer look

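For 5 of the 50 members the genotype difference had opposite signs in LSK and MP and the 2 differences lay at least 1.5-fold apart. The difference between them was not tested, since each group has 1 array. The share of all genes that meets this rule was not worked out, so the count says nothing particular about F-box genes. Signs alone were the same in 66% of F-box genes and 62.5% of all genes. MP minus LSK came to log2 -0.92 for Fbxl6, 0.77 for Fbxo25, 0.69 for Fbxo9, -0.67 for Fbxo34 and -0.62 for Fbxw2. Fbxo34 read 880 and 978 in wild-type and Fbw7-deficient LSK and 1226 and 857 in wild-type and Fbw7-deficient MP, and Fbxw2 read 484, 643, 701 and 605 in that order. Of the 7 probe sets of Fbxw2, the next brightest gave 0.30 in LSK and 0.44 in MP, so the opposite signs were not seen on it.

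Among probe sets that were not the one used for their gene and that reached the level filter on at least 1 array, those of Fbxo32 alone held readings more than 2-fold apart. Both reached the filter on the wild-type LSK array alone, so the other readings are not shown to be above background and the sizes below are not established. Its next brightest probe set differed by log2 -1.40 between genotypes in LSK, by 1.95 between wild-type LSK and MP and by 1.499 between Fbw7-deficient LSK and MP, where both readings (119 and 42.1) were under the filter. Its dimmest probe set gave -1.18 and 1.496 in the first 2 of these.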

How the results depend on the processing

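No group had a replicate, so leaving out an array was not possible and spread between replicates is not known. No paired analysis was possible because each group has 1 array and the result comes from no test. A median was taken as unmoved within log2 0.1, and those of all F-box genes stayed within it in all 4 comparisons under the 7 alternatives, though the LSK genotype median changed sign from -0.03 to 0.03 with the mean of all probe sets and to 0.00 with no level filter. The counts at 2-fold were 0 in both directions in all 4 comparisons. They stayed 0 under the alternatives except that the mean of all probe sets gave 1 gene higher in wild-type LSK than in MP, and that 1.5-fold as the mark gave 2 lower in Fbw7-deficient LSK, 1 lower in Fbw7-deficient MP, 4 higher and 1 lower in wild-type LSK against MP, and 3 higher and 1 lower in Fbw7-deficient LSK against MP. The 5 members whose genotype differences lay 1.5-fold apart between populations, a count added after the data were seen, became 3 with the mean of all probe sets and 2 without probe sets of cross-matching kinds, which left 43 members. Of 164 values of named genes, 34 moved with the mean of all probe sets by more than the median distance between probe sets of a gene, and 17 changed sign; with quantile scaling 0 moved and 8 changed sign.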
